A study of Mus musculus with 2 samples.

Results

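Olfr78 and Olfr558 are 2 olfactory receptor genes that were read here in sorted mouse brain cells. They are 2 of the 30905 genes listed for both libraries, taken by symbol, and they were chosen by their measured levels across cell classes in these same data. Their levels by class are therefore given as a description with no test. The cells came from brains of male Dmp1Cre-COX8Dendra2 mice aged 4 to 6 weeks. In these mice Cre recombinase expressed from the Dmp1 promoter switches on Dendra2, a fluorescent protein carried to mitochondria by a COX8 sequence, and cells with Dendra2 signal were sorted. There are 2 libraries, called replicate 1 and replicate 2, both of this genotype, sex and age and both sorted in this way, so there is no untreated or unsorted group. The labels do not say whether they came from separate animals, so the spread between them may be technical.

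Olfactory receptors are G protein-coupled receptors best known from the nose, where each sensory neuron uses a single receptor that signals through the G protein Golf, adenylyl cyclase 3 and a cyclic nucleotide-gated channel. Olfr78 and Olfr558, the mouse counterparts of human OR51E2 and OR51E1, are also expressed outside the nose. Olfr78 is known from smooth muscle of small arteries, from renin-bearing arterioles of the kidney and from glomus cells of the carotid body, and it responds to short-chain fatty acids. Olfr558 responds to short and branched fatty acids.

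The 2 genes lie near each other on mouse chromosome 7. In GENCODE M21 on GRCm38, Olfr558 (ENSMUSG00000070423) spans chr7:102702215-102712064 on the plus strand in 2 exons, with its coding sequence within 1 exon at chr7:102709261-102710211. Olfr78 (ENSMUSG00000043366) spans chr7:102738511-102759471 on the minus strand, with 4 transcripts and its coding sequence within 1 exon at chr7:102742042-102743001. The gap between them is 26446 bases and holds Olfr33. The build of the deposited matrices was not given in the sources used here, and 30766 of their 30905 gene identifiers are in GENCODE M21.

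The coding sequences are 960 bases for Olfr78 and 951 for Olfr558, which encode 320 and 317 residues. Aligned end to end they share 601 of 942 aligned bases, or 63.8%. Only the coding sequences were searched for like stretches, not the transcript ends past them, where 3′ libraries mostly read. The most alike 90-base stretch without a gap is shown. It holds bases 276 to 365 of the Olfr78 coding sequence and bases 285 to 374 of Olfr558, counted from the start codon, and capitals mark the 68 bases they share.
Olfr78: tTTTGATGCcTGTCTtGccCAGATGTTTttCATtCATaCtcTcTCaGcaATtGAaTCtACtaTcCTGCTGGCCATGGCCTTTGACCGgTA
Olfr558: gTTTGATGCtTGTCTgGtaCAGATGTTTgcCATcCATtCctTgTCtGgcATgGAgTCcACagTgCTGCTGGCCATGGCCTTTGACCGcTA
Over the whole coding alignment the longest identical run is 23 bases. The transcripts of Olfr558 hold 3011 different 31-base words, and 0 of these occur in Olfr78 or another olfactory receptor gene. Of the 6016 words of Olfr78, some occur in 74 other olfactory receptor genes, with 867 shared with Olfr560 and at most 18 with any of the others.

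The libraries differ in depth. After keeping barcodes with at least 500 genes, at least 1000 UMIs (unique molecular identifiers, each a counted transcript molecule) and under 20% mitochondrial UMIs, replicate 1 held 7697 of 8236 barcodes with a median of 6897 UMIs, and replicate 2 held 6427 of 7077 with a median of 3016. The libraries share 14 kept barcode sequences. Cells were placed in classes by UMIs per 10000. Smooth muscle has Acta2 at or above 80, divided into Rgs5-high (Rgs5 at or above 80) and Rgs5-low cells. Transitional cells have Acta2 of 20 to 80 with Rgs5 at or above 80, pericytes have Vtn at or above 50 with Acta2 below 20, and endothelium has Cldn5 at or above 5 with Vtn below 20. Oligodendrocytes served as a class that should lack the receptors. Genes that the gates did not use followed the names. The contractile gene Tagln was at 13542 and 10954 CPM (UMIs of a gene scaled by all UMIs of the class) in smooth muscle against 281 and 112 in pericytes of replicates 1 and 2. The pericyte channel gene Kcnj8 was at 1424 and 890.1 CPM in pericytes against 34.3 and 19.5 in smooth muscle. Pecam1 reached 652 and 627 CPM in endothelium, and the myelin gene Mog 1388 and 2476 CPM in oligodendrocytes. Markers of olfactory sensory neurons were at or near 0. Cnga2 had no UMI in any gated class, and Omp had no UMI in smooth muscle, pericytes or endothelium of either library.

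Olfr558 was abundant in smooth muscle and transitional cells. In Rgs5-high smooth muscle it stood at 597 CPM in replicate 1 (4450 UMIs in 871 cells) and 422 CPM in replicate 2 (282 UMIs in 158 cells). In transitional cells it stood at 451 and 354 CPM, and in Rgs5-low smooth muscle at 376 and 332 CPM. The level then dropped to 55.6 and 21.9 CPM in pericytes, 23.7 and 7.96 CPM in endothelium and 3.30 and 2.51 CPM in oligodendrocytes. Over all smooth muscle the level was 388 ± 55.1 CPM (SD, n = 2 libraries), 7.67 times the pericyte level in replicate 1 and 15.9 times in replicate 2. Both smooth muscle subclasses and the transitional cells were above every value of the other 3 classes. Among themselves these 3 mural classes overlapped between libraries, and so did pericytes and endothelium, while the endothelial values of 23.7 and 7.96 CPM stayed above both oligodendrocyte values.

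Olfr78 was also highest in smooth muscle and transitional cells, at a lower level. It stood at 106 and 102 CPM in Rgs5-high smooth muscle (791 and 68 UMIs), 95.8 and 83.7 CPM in transitional cells and 72.0 and 81.9 CPM in Rgs5-low smooth muscle. It dropped to 7.62 and 1.91 CPM in pericytes, 4.62 and 1.94 CPM in endothelium and 2.40 and 1.16 CPM in oligodendrocytes. The smooth muscle level was 82.7 ± 4.09 CPM (SD, n = 2), 10.5 times the pericyte level in replicate 1 and 44.8 times in replicate 2. The Rgs5-high values lay above the transitional ones, while the lower transitional value (83.7 CPM) and the higher Rgs5-low value (81.9 CPM) nearly met. Pericyte, endothelial and oligodendrocyte values overlapped, and for replicate 2 their counting intervals reached from 0.424 to 3.67 CPM.

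**Figure D1:**
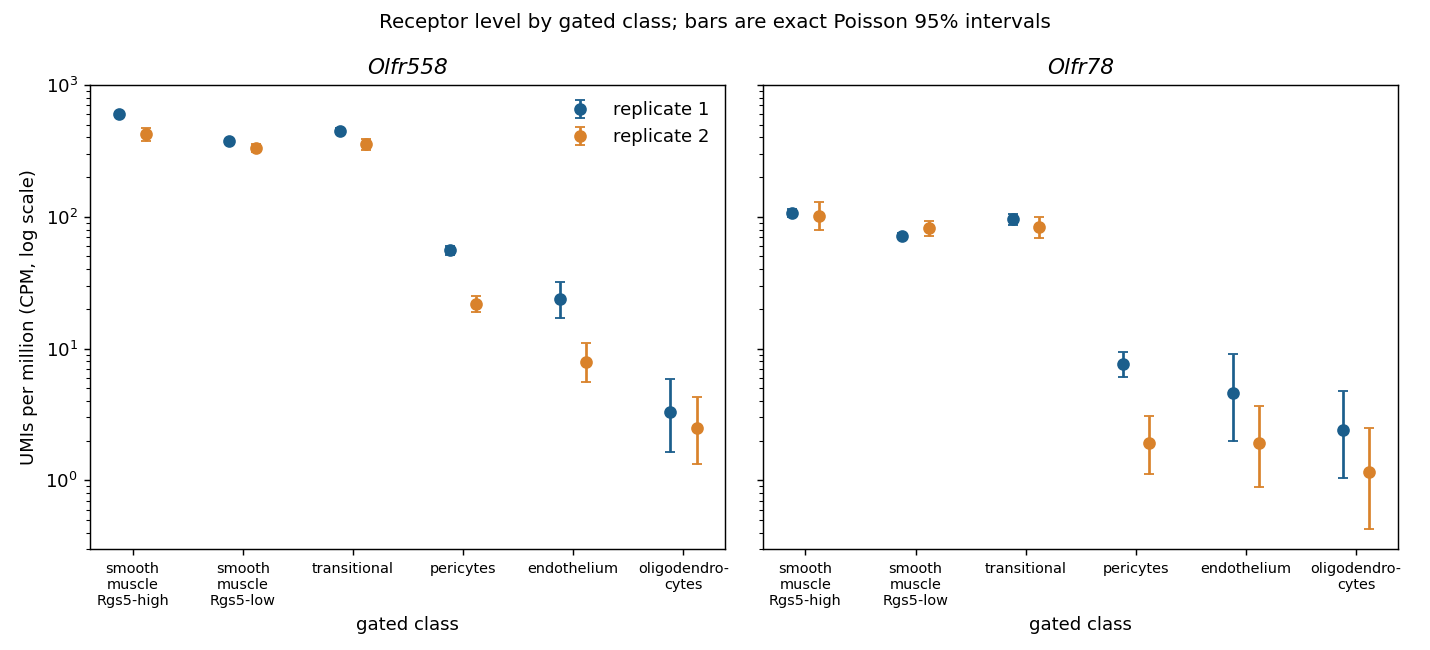
Level of Olfr558 (left) and Olfr78 (right) in CPM on a log axis, by gated class. Points are libraries and bars exact Poisson 95% intervals, which cover counting error only. Olfr558 lies between 332 and 597 CPM and Olfr78 between 72.0 and 106 CPM in smooth muscle and transitional cells, and no other class exceeds 55.6 and 7.62 CPM.

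Olfr558 gave more UMIs than Olfr78 in each class. In smooth muscle there were 5.35 Olfr558 UMIs for each Olfr78 UMI in replicate 1 (13975 and 2614) and 4.07 in replicate 2 (1267 and 311). These are counts from 3′ ends, which do not scale with transcript length but were not corrected for how well each 3′ end is captured. The ratio was 4.71 and 4.23 in transitional cells and 7.30 and 11.5 in pericytes. The pericyte ratio of replicate 2 rests on 17 Olfr78 UMIs. In oligodendrocytes the ratio was 1.38 and 2.17, on 8 and 6 Olfr78 UMIs.

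Most smooth muscle cells carried Olfr558. A UMI was found in 3029 of 3613 smooth muscle cells of replicate 1 (83.8%, exact binomial 95% interval 82.6 to 85.02) and 566 of 796 of replicate 2 (71.1%, 67.8 to 74.2). In replicate 1, 1280 of these cells held 5 or more Olfr558 UMIs, and the highest count in a cell was 24. Olfr78 was found in 1623 of 3613 cells (44.9%, 43.3 to 46.6) and 227 of 796 (28.5%, 25.4 to 31.8), with 983 and 167 of those cells holding 1 UMI. When every cell was thinned to 2000 UMIs by exact calculation, leaving out 23 and 26 shallower cells, the shares became 51.7% and 47.4% for Olfr558 and 14.8% and 15.1% for Olfr78. At matched depth the libraries were close, with an SD of 3.01 percentage points for Olfr558 and 0.190 for Olfr78. The thinned share in oligodendrocytes, whose median depth of 16481 and 10812 UMIs was above that of smooth muscle (8756 and 4460), was 0.863% and 0.391% for Olfr558 and 0.661% and 0.117% for Olfr78. Unthinned, oligodendrocytes with a UMI made up 4.74% and 1.96% for Olfr558 and 3.16% and 0.980% for Olfr78.

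The thinned pericyte share was 6.68% and 3.20% for Olfr558, above the oligodendrocyte share in both libraries, and 1.33% and 0.259% for Olfr78. For endothelium it was 2.26% and 0.926% for Olfr558 and 0.692% and 0.256% for Olfr78. The thinned Olfr78 shares of both classes were above the oligodendrocyte share in both libraries, but they rest on few UMIs, 84 and 17 in pericytes and 8 and 9 in endothelium against 8 and 6 in oligodendrocytes. In CPM, pericytes held 3.18 and 1.65 times the oligodendrocyte level of Olfr78, with overlapping intervals in replicate 2.

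Within smooth muscle, Olfr78 was lower in each deeper band of cells, and Olfr558 was lowest in the deepest band of both libraries. In replicate 1 Olfr78 stood at 112 CPM in cells of 1000 to 3000 UMIs, 106 CPM at 3000 to 6000, 81.8 CPM at 6000 to 12000 and 63.6 CPM at 12000 or more. Olfr558 stood at 549, 415, 441 and 364 CPM in these bands. In replicate 2 the first 3 bands held 106, 86.4 and 77.7 CPM of Olfr78 and 358, 364 and 281 CPM of Olfr558. Whether depth or another property of these cells carries the difference was not tested.

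Both receptors were higher toward the Rgs5-rich end of smooth muscle. Rgs5 encodes a regulator of G protein signalling that is high in pericytes and the smallest arterioles. The Rgs5 bands here and the Acta2 bands of smooth muscle and pericytes below were chosen after the class levels had been seen. From cells with Rgs5 below 20 per 10000 to bands of 20 to 80, 80 to 160 and 160 or more, Olfr558 went from 274 to 534, 589 and 617 CPM in replicate 1 and from 272 to 405, 419 and 439.8 CPM in replicate 2. Olfr78 went from 53.3 to 101, 100.2 and 121 CPM in replicate 1 and from 65.6 to 102, 95.4 and 137 CPM in replicate 2. The lowest band lay below the others in both libraries, with separate intervals for Olfr558 and, in replicate 1, for Olfr78. In replicate 2 the intervals of the 3 upper bands overlapped for both genes, and the top band holds 26 cells. The ratio of Rgs5-high to Rgs5-low smooth muscle was 1.59 and 1.27 for Olfr558 and 1.47 and 1.24 for Olfr78.

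Among the smooth muscle bands of replicate 1 the widest range was along Cnn1, which encodes calponin, an actin-binding protein of contractile arterial muscle. These bands were chosen after Cnn1 values had been seen. Olfr558 went from 565 CPM in the 2012 cells with no Cnn1 UMI to 391, 221 and 64.3 CPM in cells with Cnn1 up to 5, 5 to 15 and 15 or more per 10000. Olfr78 was at 105, 75.2, 39.96 and 19.98 CPM in the same bands. The top band holds 148 cells with 103 Olfr558 and 32 Olfr78 UMIs, and 29.7% of its cells had an Olfr558 UMI although their median depth of 10603 UMIs was the highest of the 4 bands. In replicate 2 Olfr558 was at 389 CPM without Cnn1 and at 251 and 265 CPM in the next 2 bands, and Olfr78 was at 93.7, 73.4 and 52.5 CPM. The top band of replicate 2 had too few cells to give a value. Both receptors were thus lower with Cnn1 in both libraries, although intervals of neighbouring Olfr78 bands overlapped in replicate 2. The slope was steeper in replicate 1, where Cnn1 itself was at 464 CPM in Rgs5-low smooth muscle against 178 CPM in replicate 2.

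**Figure D2:**
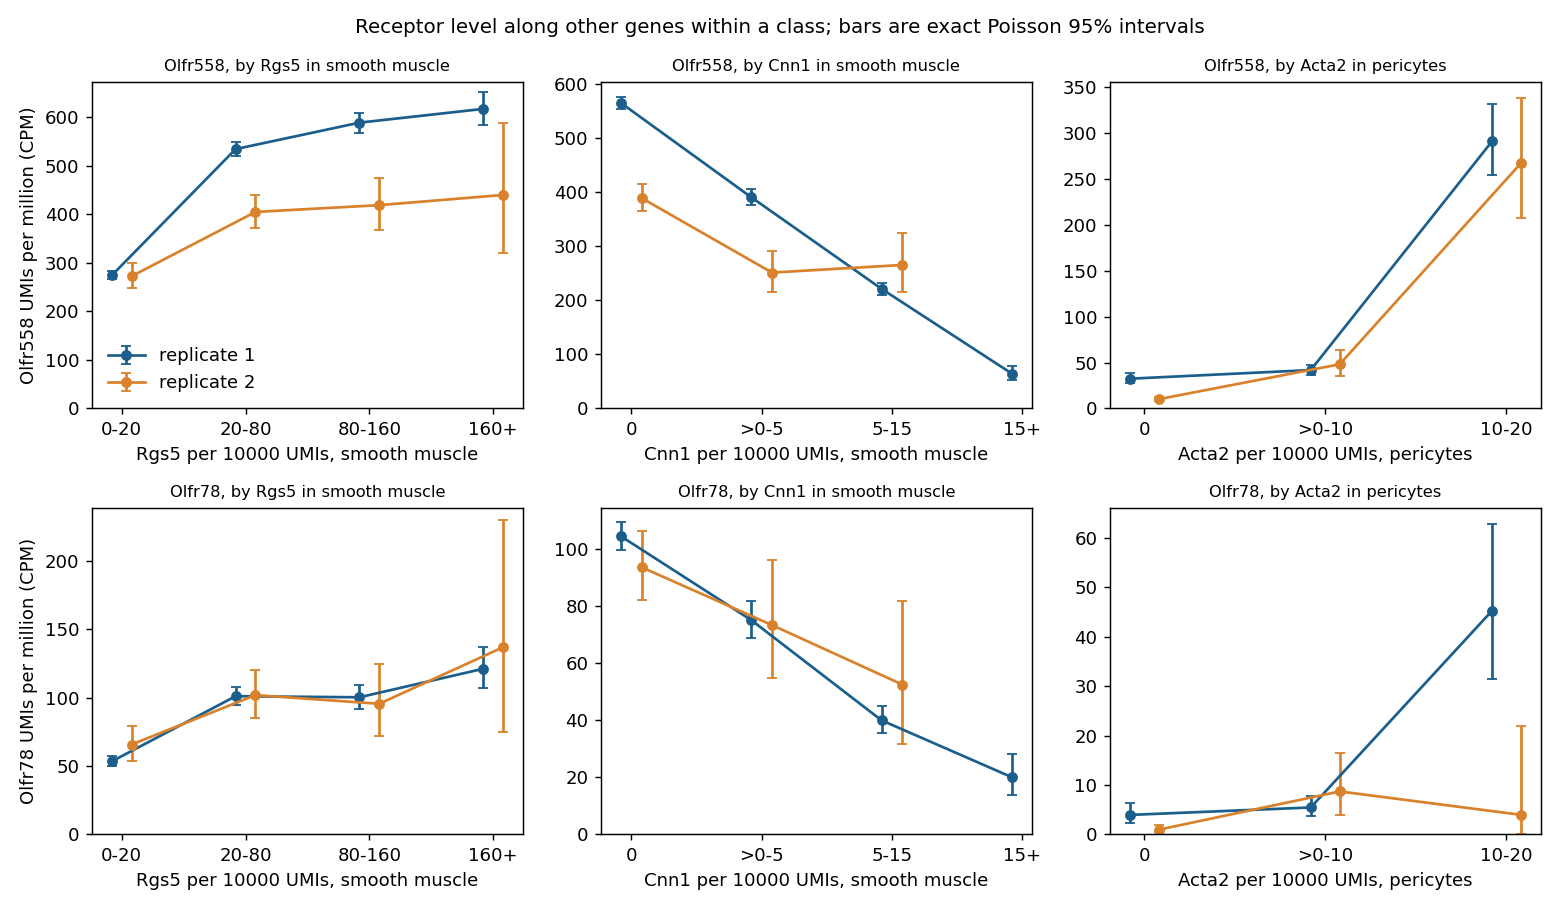
Level of Olfr558 (top) and Olfr78 (bottom) in CPM by bands of Rgs5 and Cnn1 in smooth muscle and of Acta2 in pericytes, all per 10000 UMIs. Points are libraries with exact Poisson 95% intervals. Olfr558 reaches 617 CPM at the Rgs5-rich end of replicate 1, drops to 64.3 CPM in the Cnn1-rich band and rises to 291 CPM in pericytes with Acta2 of 10 to 20.

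Bands along Acta2, on which the gates rest, show the class edges. Within smooth muscle Olfr558 was at 566, 526 and 303 CPM with Acta2 of 80 to 120, 120 to 200 and 200 or more in replicate 1, and at 384, 353 and 274 CPM in replicate 2. Olfr78 was at 96.1, 98.7 and 59.8 CPM and at 87.7, 86.3 and 79.7 CPM. Cells just inside the smooth muscle gate, with Acta2 of 80 to 90, held Olfr558 at 495 and 419.98 CPM, and cells just outside, with Acta2 of 70 to 80, held it at 442 and 366 CPM. For Olfr78 the values were 78.3 and 107 CPM inside and 81.3 and 84.1 CPM outside. At the lower edge, cells with Acta2 of 20 to 25 held Olfr558 at 414 and 284 CPM and those with Acta2 of 15 to 20 at 306 and 338 CPM. Olfr78 was at 103 and 133 CPM inside this edge against 52.0 and 0 CPM outside it. The 0 stands for 0 UMIs in 32 cells, which allows up to 38.9 CPM.

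In pericytes Olfr558 was highest in the cells with the most Acta2, the smooth muscle actin gene, and so was Olfr78 in replicate 1. Olfr558 was at 32.4 and 10.1 CPM in pericytes with no Acta2 UMI, 41.9 and 48.2 CPM with Acta2 up to 10 per 10000, and 291 and 267 CPM with Acta2 of 10 to 20. The last band is small, with 148 and 84 cells, and held 225 of 613 and 68 of 195 pericyte UMIs of Olfr558. Over the same bands Olfr78 was at 3.91, 5.42 and 45.3 CPM in replicate 1, on 17, 32 and 35 UMIs. In replicate 2 it was at 0.919, 8.67 and 3.93 CPM, on 7, 9 and 1 UMIs, and so not highest in the last band. Pericytes held Olfr558 at 13.0% and 6.28% of the smooth muscle level, and Olfr78 at 9.55% and 2.23%. For genes of smooth muscle contraction the same percentage was 1.43% and 0.577% for Acta2, which the gate limits, 2.07% and 1.02% for Tagln, 3.86% and 2.07% for Myh11, 2.76% and 1.11% for Myocd and 1.12% and 0.681% for Cnn1. In replicate 2 the value of Olfr78 was thus close to that of Myh11. Des, the intermediate filament gene of muscle that pericytes also express, was at 28.6% and 31.3%. In replicate 1, 77 of 2394 pericytes held 3 or more Olfr558 UMIs and contributed 58.9% of the pericyte UMIs. In replicate 2, 19 of 3298 did and contributed 34.9%.

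Cells with both receptors were common in smooth muscle. In replicate 1, 1456 of 3613 cells had UMIs of both (40.3%, exact interval 38.7 to 41.9), 1573 had Olfr558 alone, 167 had Olfr78 alone and 417 had neither. In replicate 2, 171 of 796 had both (21.5%, 18.7 to 24.5), 395 Olfr558 alone, 56 Olfr78 alone and 174 neither. The counts expected from each gene's frequency, computed within subclasses and bands of total UMIs, were 1377 and 164. The observed counts were thus 1.06 and 1.05 times the expected. Among smooth muscle cells with Olfr78, 89.7% (88.1 to 91.1) also had Olfr558 in replicate 1, against 79.0% (77.2 to 80.8) of cells without Olfr78. In replicate 2 the shares were 75.3% (69.2 to 80.8) and 69.4% (65.5 to 73.2), whose intervals overlap.

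By subclass, Rgs5-low smooth muscle had 1027 cells observed against 949 expected in replicate 1 and 136 against 129 in replicate 2. In Rgs5-high smooth muscle the observed and expected counts were 429 and 427 in replicate 1 and 35 and 34.9 in replicate 2. By bands of total UMIs from 3000 upward the ratio of observed to expected was 1.01, 1.05 and 1.11 in replicate 1 and 1.03 and 1.19 in replicate 2, and the shallowest band gave 1.53 on 5 cells and 0.893 on 7 cells. Of cells with 12000 or more UMIs in replicate 1, 95.7% of those with Olfr78 and 72.9% of those without it had Olfr558. For cells of 6000 to 12000 UMIs in replicate 2 these shares were 96.6% and 73.2%, over 85 cells in all. In pericytes 25 cells had both against 8.58 expected in replicate 1, and 5 against 0.593 in replicate 2, which are ratios of 2.91 and 8.44. The ratio was also high in the other classes with few positive cells. Endothelium had 2 cells against 0.456 and 3 against 0.253, and oligodendrocytes had 2 against 0.324 and 4 against 0.136. Transitional cells had 205 against 194 and 51 against 48.6.

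**Figure D3:**
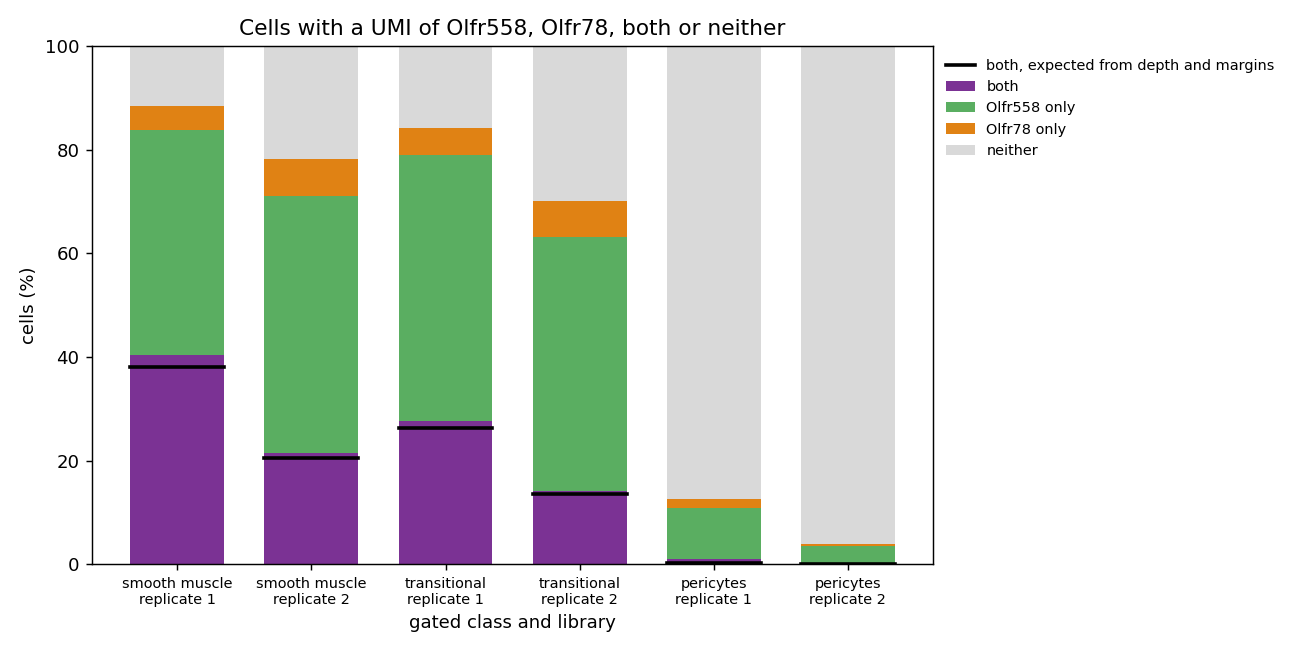
Share of cells (%) with a UMI of both receptors, of Olfr558 alone, of Olfr78 alone or of neither, for 3 gated classes in each library. Black lines mark the share with both expected from the margins within subclasses and bands of total UMIs. In smooth muscle the share with both is 40.3% and 21.5%, just above the expected line.

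Smooth muscle cells with and without a receptor UMI were then compared across all genes. Within each library and Rgs5 subclass, cells with a UMI were paired 1 to 1 with cells without it that lay within 10% in total UMIs, and the UMIs of each side were summed, giving 4 sums per receptor. edgeR's quasi-likelihood test with the library as a block was used, and a gene was called at a Benjamini-Hochberg adjusted p under 0.05. A cell without a UMI may still hold the transcript. The libraries share 1 design here and n is 2 per side. Both sides of a library are splits of the same preparation, and with so few sums the spread is largely borrowed across genes. The SE and adjusted p therefore do not show how far the 2 libraries differ for a gene, nor the spread between animals.

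For Olfr558 there were 577 and 216 pairs, with median depths of 8696 and 8696 UMIs in replicate 1 and 4274 and 4277 in replicate 2. Most of the 3029 and 566 smooth muscle cells with Olfr558 were left out, since few cells lacked it. Of the paired cells 12.5% and 15.7% were Rgs5-high, against 797 of the 3029 and 120 of the 566. Cnn1 and Actg2 were among the genes lower in cells with Olfr558, and Pex5l was among those higher. Of 10254 genes tested 376 were called (3.67%), 132 higher (1.29%) and 244 lower (2.38%) in cells with Olfr558. Olfr78 stood at 80.6 CPM with and 43.8 CPM without Olfr558 in replicate 1, and at 107 and 74.5 CPM in replicate 2. Its log2 fold change was 0.71 ± 0.14 (SE), higher with Olfr558 in 2 of 2 libraries. This restates the co-detection of the receptors and is given with no test.

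Cnn1 stood at 311 CPM with and 1011 CPM without Olfr558 in replicate 1 and at 95.8 and 199 CPM in replicate 2, a log2 fold change of -1.57 ± 0.12 (edgeR adjusted p = 1.59e-12). Actg2, the smooth muscle gamma-actin gene, stood at 50.9 against 363 CPM and 5.38 against 16.2 CPM (-2.84 ± 0.16, edgeR adjusted p = 8.12e-17). The insulin-like growth factor binding protein gene Igfbp2 stood at 14.2 against 187 CPM and 1.08 against 4.32 CPM (-3.74 ± 0.19). Single libraries, pulled toward 0 by a prior count, gave -2.88 and -1.32 for Actg2 and -3.73 and -1.03 for Igfbp2. These differ by more than the SE. Other lower genes named by size were Col1a1, a fibrillar collagen gene that also marks fibroblasts, and Col13a1, a membrane collagen gene, with Ckm, the muscle creatine kinase gene, Fam129a, Adam33 and the connexin gene Gjb2. Col1a1 was at 0.789 against 21.5 CPM in replicate 1 and 1.08 against 4.32 CPM in replicate 2. Col13a1 was at 4.14 against 50.7 CPM in replicate 1 but at 0 against 2.16 CPM in replicate 2, so for such genes the size of the difference rests on replicate 1. Other smooth muscle markers moved less. Tagln changed by -0.29 ± 0.07 (edgeR adjusted p = 0.00837) and Des by -0.47 ± 0.09 (edgeR adjusted p = 0.000507), while Myh11 at -0.14 and the regulator gene Myocd at -0.01 did not pass.

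Genes higher with Olfr558 were mostly low. Among those named, Pex5l, whose product regulates pacemaker channels in neurons, had the lowest adjusted p. It was at 61.5 against 17.7 CPM in replicate 1 and 91.5 against 37.8 CPM in replicate 2 (1.57 ± 0.17, edgeR adjusted p = 2.56e-08). Nfasc, encoding the adhesion protein neurofascin, was at 12.03 against 3.55 CPM and 5.38 against 0 CPM. Prkg2, a cGMP-dependent kinase gene, was at 4.14 against 0.197 CPM and 4.31 against 0 CPM. Relt, Fgd2, Gm11716, Brinp2 and Sez6l were also higher. Among these, Relt was at 10.6 against 2.37 CPM and 15.1 against 8.63 CPM, and Gm11716 at 14.8 against 2.96 CPM and 8.61 against 3.24 CPM. The pericyte marker Higd1b rose by 0.66 ± 0.12 (edgeR adjusted p = 0.000469), with 1.05 in replicate 1 and 0.10 in replicate 2. Of the other pericyte markers tested, Kcnj8, Abcc9, Vtn, Atp13a5 and Pdgfrb, none passed, with values between -0.34 and 0.25.

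Of 5 endothelial markers 3 could be tested and 2 were lower in cells with Olfr558. Cldn5 was at 11.2 against 20.7 CPM and 7.53 against 38.8 CPM (-1.24 ± 0.25, edgeR adjusted p = 0.00118), and Flt1 changed by -1.18 ± 0.24 (edgeR adjusted p = 0.00128). Slc2a1 at -0.40 ± 0.20 did not pass. In endothelium itself Flt1 stood at 2584 and 3706 CPM. Cells with Olfr558 also had a lower median mitochondrial share in replicate 1, 10.98% against 12.3%, and 7.10% against 7.21% in replicate 2. The part of either in the result was not tested. Without the block 0 genes were called by edgeR, with 29 higher and 66 lower at an unadjusted p under 0.05, and DESeq2 with the block called 4 higher and 15 lower. With scaling by total counts in place of TMM the called genes were 234 higher and 236 lower, so that 49.8% rather than 35.1% of the calls were higher.

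For Olfr78 there were 1478 and 223 pairs, with median depths of 8737 and 8723 UMIs in replicate 1 and 4591 and 4593 in replicate 2. Fewer genes were called: 31 of 11490 tested (0.27%), of which 2 were higher (0.0174%) and 29 lower (0.252%) in cells with Olfr78. The higher genes were Ackr3, which encodes a chemokine receptor that scavenges CXCL12, at 633 against 511 CPM and 420.1 against 316 CPM (log2 0.31 ± 0.05, edgeR adjusted p = 0.0472), and Rgs4, a regulator of G protein signalling, at 1019 against 846 CPM and 1150 against 937 CPM (0.25 ± 0.04, edgeR adjusted p = 0.0472). Both were higher in 2 of 2 libraries. Neither passed with DESeq2 size factors in edgeR or with DESeq2's own test.

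Cnn1 was again lower, at 224 against 486 CPM in replicate 1 and 122 against 176 CPM in replicate 2 (-1.06 ± 0.09, edgeR adjusted p = 0.00174). Actg2 was at 42.9 against 122 CPM and 3.79 against 8.54 CPM (-1.52 ± 0.10, edgeR adjusted p = 0.000473), and Igfbp2 at 21.1 against 55.9 CPM and 0 against 1.90 CPM. Enpp2, encoding the lysophospholipase autotaxin, showed the largest difference, at 3.15 against 33.8 CPM and 2.84 against 18.0 CPM (-3.39 ± 0.22, edgeR adjusted p = 0.000428). Igfbp4 was at 121 against 229 CPM and 38.9 against 83.5 CPM (-0.97 ± 0.09, edgeR adjusted p = 0.00214). Timp4, Bdh1 and Id2 were lower as well. In replicate 2 Timp4 was at 0 against 0.949 CPM and Bdh1 at 6.64 against 8.54 CPM, so both rest on replicate 1. Tagln changed by -0.17 ± 0.03 (edgeR adjusted p = 0.0407). The other smooth muscle markers Myh11 at -0.02, Des at -0.10 and Myocd at 0.06 did not pass.

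Olfr558 stood at 494 CPM with and 362 CPM without Olfr78 in replicate 1 and at 367 and 338 CPM in replicate 2, a log2 fold change of 0.34 ± 0.07 (SE), which again restates the co-detection and is given with no test. The count of called genes moved with the settings. Leaving out the highest 6% of doublet scores gave 20 higher and 114 lower, matching without subclass 64 and 149, and scaling by total counts 9 and 34, of which 20.9% rather than 6.45% were higher. Without the block 0 genes were called by edgeR and 1 higher and 10 lower had an unadjusted p under 0.05, while DESeq2 with the block called 1 higher and 13 lower. None of the 4 endothelial markers tested passed in this comparison, and Cldn5 differed by 0.99 in replicate 1 and -2.32 in replicate 2.

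**Figure D4:**
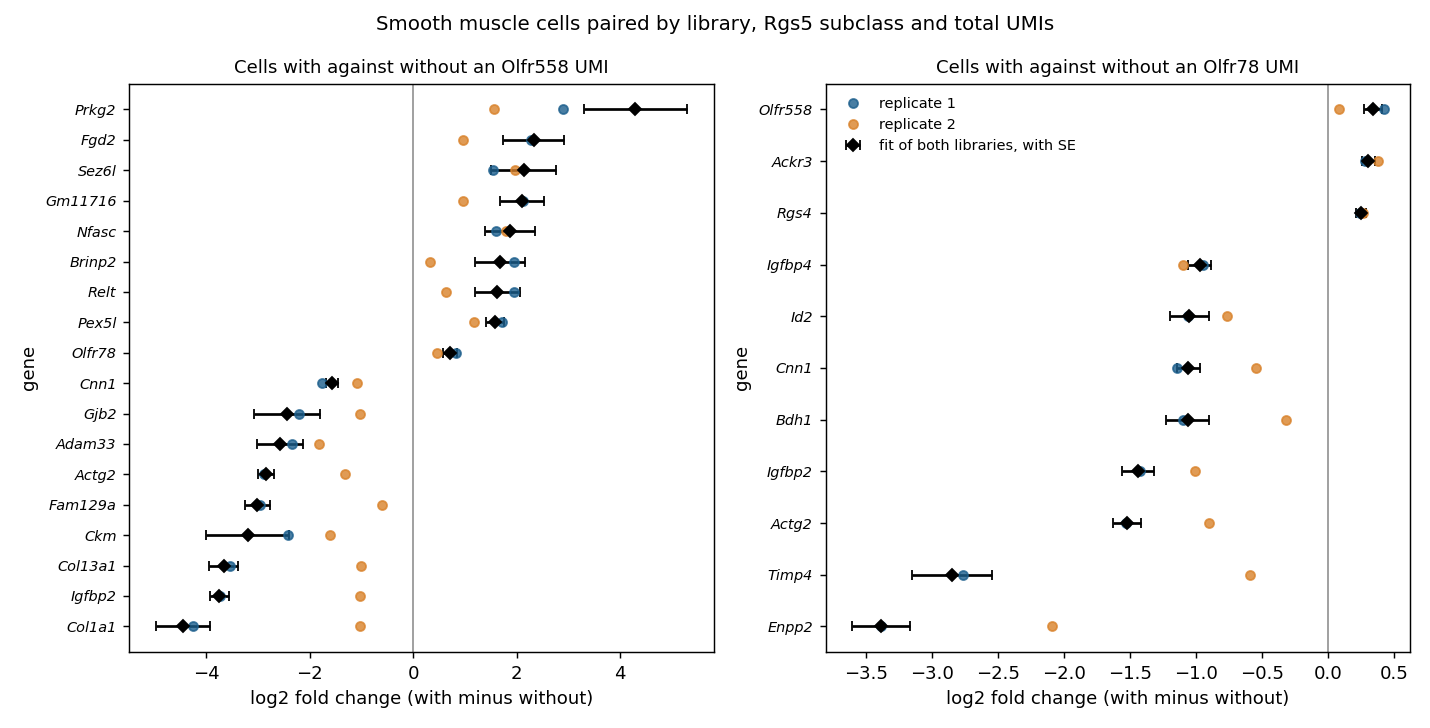
Log2 fold change of named genes between paired smooth muscle cells with and without a UMI of Olfr558 (left) or Olfr78 (right). Black diamonds are the fit of both libraries with its standard error, and circles are single libraries, pulled toward 0 by a prior count. Cnn1 and Actg2 lie to the left of 0 in both panels and in both libraries, and replicate 2 is mostly nearer 0.

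The receptors stood almost alone within their family. The files list 1135 genes with an Olfr symbol, of which 985 had no UMI in any kept cell, 70 had 1 UMI and 23 had 10 or more. Olfr558 with 19715 UMIs and Olfr78 with 3883 made up 94.2% of the 25048 olfactory receptor UMIs. The next over both libraries were Olfr560 with 332, Olfr33 and Olfr889 with 189 each, Olfr482 with 58 and Olfr552 with 57.

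Olfr560 and Olfr33 are neighbours on chromosome 7. Olfr560 lies at chr7:102751818-102759366 on the minus strand, inside the Olfr78 gene. It shares 926 exon bases with Olfr78, which are 42.7% of its own exon bases and 15.3% of those of Olfr78, and 867 of its 31-base words are found in Olfr78. Reads from this stretch cannot be assigned to either gene with certainty, so the Olfr560 count is uncertain. The shared bases begin 447 bases from the 3′ end of Olfr560 and 13754 genomic bases from the 3′ end of Olfr78, where 3′ libraries mostly read. Of its 332 UMIs 272 were in smooth muscle, and replicate 1 held 316. Olfr33 lies on the opposite strand with its own 3′ end 86 bases past that of Olfr558, at chr7:102712151-102719070. Of its 189 UMIs 144 were in smooth muscle, 30 in transitional cells and 2 in pericytes. Olfr557, Olfr559 and Olfr561, also nearby, had 11, 2 and 3 UMIs in replicate 1 and 2, 0 and 2 in replicate 2. Trim68, a nearby ubiquitin ligase gene of another family, had 517 and 136 UMIs spread over all classes, with 32 of the 136 in oligodendrocytes.

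**Figure D5:**
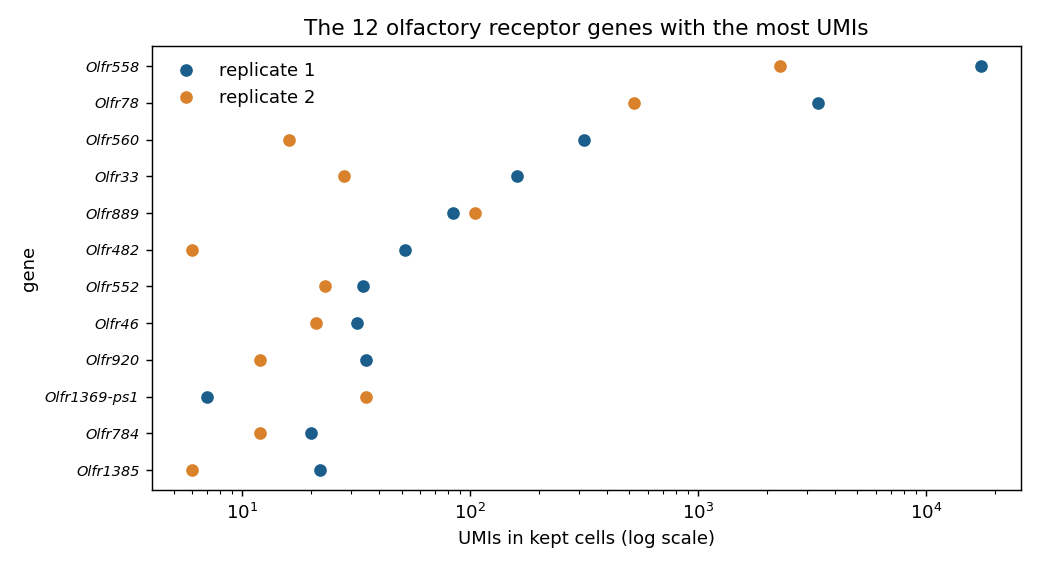
UMIs of the 12 olfactory receptor genes with the most UMIs in kept cells, by library, on a log axis. Olfr558 (17418 and 2297) and Olfr78 (3360 and 523) lie above every other gene, the next being Olfr560 in replicate 1 (316) and Olfr889 in replicate 2 (105).

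Genes with the most similar pattern were ranked by Pearson's correlation of log2(CPM + 1) over 12 sums (6 classes in 2 libraries) among 9015 genes. The sums of a library share its preparation, and smooth muscle classes dominate the pattern, so these values are a description. Nearest to Olfr78 were Htr1b, a serotonin receptor gene (r = 0.991), 9230112J17Rik (0.991), Tesc (0.986), Chmp4c (0.986), Gm34829 (0.984), Mamdc2 (0.981), Sncg (0.980) and Iah1 (0.978). Htr1b stood at 49.6 and 31.4 CPM in Rgs5-high smooth muscle and at 1.72 and 0.337 CPM in pericytes. Nearest to Olfr558 were Map3k7cl (0.996), Sept6 (0.995), Mamdc2 (0.992), Wtip (0.991), Nrip2 (0.990), the diacylglycerol kinase gene Dgkb (0.990), Dhx58os (0.989) and Asb2 (0.987). Map3k7cl stood at 724 and 605 CPM in Rgs5-high smooth muscle and at 77.1 and 42.9 CPM in pericytes. Mamdc2 is in both lists. The receptors ranked 24th and 47th for each other (r = 0.969), while Cnn1 ranked 663rd for Olfr78 (0.731) and 1031st for Olfr558 (0.727).

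Genes that act with olfactory receptors elsewhere were read from lists in 3 class comparisons. These were fitted by edgeR over 5 classes in 2 libraries with the library as a block. The fits take smooth muscle as the mean of its 2 Rgs5 subclasses with equal weight and scale by TMM. CPM pools all smooth muscle cells and scales by total UMIs, so a fold change and its CPM values can differ, also in sign. The background was high: of 12391 genes tested, 40.3% were called between smooth muscle and pericytes (18.4% higher and 21.9% lower), 52.5% between smooth muscle and endothelium (26.2% and 26.3%) and 5.76% between Rgs5-low and Rgs5-high smooth muscle (2.78% and 2.99%). With scaling by total counts the median of all genes moved from -0.09 to -0.39, from -0.02 to -0.21 and from 0.05 to -0.10 on the log2 scale. The share of calls that were higher moved from 45.7% to 22.8%, from 49.9% to 37.7% and from 48.2% to 31.3%. The list genes called are named below with the TMM values, and 6 of the 40 calls against pericytes and 3 of the 45 against endothelium were lost under total counts, with no change of sign.

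The first list holds the signal chain of the nose. Of its 15 genes 6 had enough counts to be tested and 2, Cnga2 and Stoml3, had no UMI in the 5 classes. Gnal, which encodes Golf, was at 0.519 and 0.825 CPM in smooth muscle and was not tested, and Adcy3, the olfactory adenylyl cyclase gene, was at 1.92 and 1.65 CPM there. Pericytes held Adcy3 at 26.0 and 18.1 CPM, and the log2 difference of smooth muscle from pericytes was -3.42 ± 0.22 (edgeR adjusted p = 7.81e-07). The channel subunit gene Cngb1 was lower than in pericytes (-2.46 ± 0.67) and than in endothelium (-5.45 ± 0.60), where it stood at 10.97 and 9.46 CPM. Gnas, which encodes the ubiquitous relative Gs, was at 1142 and 1072 CPM in smooth muscle, and Gnb1, a beta subunit gene, at 324 and 271 CPM. Pericytes held Gnas at 1156 and 1085 CPM and Gnb1 at 329 and 285 CPM, slightly above smooth muscle in both libraries. By edgeR 2 list genes were higher than in pericytes (Gnas 0.31 and Gnb1 0.31, both lost under total counts) and 2 lower. The list median was -0.21 beside -0.09 for all genes. Against endothelium 0 were higher and 3 lower by edgeR, the same counts as at an unadjusted p under 0.05. Between the Rgs5 subclasses 0 of the 6 passed, and 0 had an unadjusted edgeR p under 0.05.

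Among genes for proteins that carry olfactory receptors to the cell surface, Rtp2 had no UMI in the 5 classes and Rtp1 none in smooth muscle. Of 8 list genes tested, 2 were higher and 2 lower than in pericytes, with a list median of -0.43. Reep1 was at 11.8 and 7.98 CPM in smooth muscle against 1.09 and 2.81 CPM in pericytes (2.46 ± 0.39, edgeR adjusted p = 0.000532), but lower than in endothelium, which held 39.3 and 37.2 CPM (-1.96 ± 0.30). Reep5 was at 187 and 162 CPM in smooth muscle against 146 and 118 CPM in pericytes (0.66 ± 0.10). Rtp4, which interferons also induce, was at 2.04 and 0.550 CPM in smooth muscle, lower than in pericytes (-2.25 ± 0.23) and than in endothelium (-5.76 ± 0.20), where it stood at 147 and 66.0 CPM. Reep3 was at 123 and 115 CPM in smooth muscle and changed by -0.77 ± 0.10 against pericytes. Against endothelium 2 genes were higher and 4 lower, Reep6 and Rtp3 among them with few UMIs. Between the Rgs5 subclasses 0 of the 8 passed, with 1 higher at an unadjusted edgeR p under 0.05.

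Adenylyl cyclases, the enzymes that Gs and Golf activate, differed by isoform. Adcy5 was at 125 and 128 CPM in smooth muscle, against 23.4 and 20.3 CPM in pericytes (2.56 ± 0.16, edgeR adjusted p = 7.64e-07) and 8.08 and 3.66 CPM in endothelium (4.57 ± 0.23). It was also higher in Rgs5-low than in Rgs5-high smooth muscle (0.91 ± 0.17, edgeR adjusted p = 0.0113). The receptors, described without a test, stood higher in Rgs5-high cells in CPM. Their log2 differences in this fit were of the same order as the SE, -0.33 ± 0.25 for Olfr558 and -0.26 ± 0.30 for Olfr78. Single libraries gave -0.52 and -0.18 for Olfr558 and -0.41 and -0.14 for Olfr78. Adcy6 was at 79.0 and 91.6 CPM in smooth muscle and 129 and 107 CPM in pericytes (-0.12 ± 0.11 by the TMM fit, not past the threshold). Adcy9 was at 72.4 and 54.8 CPM in smooth muscle and higher than in endothelium (2.69 ± 0.20). Adcy4 was lower in smooth muscle, at 3.94 and 4.68 CPM, than in endothelium at 111 and 106 CPM (-4.30 ± 0.23). Adcy1 was lower than in pericytes (-3.69 ± 0.58). The exchange factor gene Rapgef3, whose product cAMP activates, was at 9.86 and 10.5 CPM in smooth muscle and 54.0 and 29.4 CPM in pericytes (-1.58 ± 0.26). Prkar1b, a protein kinase A regulatory subunit gene, was higher than in endothelium (3.49 ± 0.22). Of 17 genes tested 7 were higher and 5 lower than in pericytes with a list median of -0.02, and 9 were higher and 5 lower than in endothelium with a median of 0.80. Between the Rgs5 subclasses 1 was higher and 1 lower, the latter being Prkar2b (-0.74 ± 0.18).

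Other receptors for short-chain fatty acids, lactate, protons or adenosine were read beside them. Ffar3, Ffar4, Hcar2, Sucnr1 and Oxgr1 had no UMI in the 5 classes. Ffar2, a receptor for acetate and propionate, was at 12.1 and 4.60 CPM in pericytes and 0.183 and 0.275 CPM in smooth muscle (-5.24 ± 0.56, edgeR adjusted p = 6.91e-05), and had no UMI in endothelium. Gpr4, a proton-sensing receptor, was at 4.55 and 14.9 CPM in smooth muscle, 48.6 and 49.8 CPM in pericytes and 76.8 and 100.4 CPM in endothelium. The adenosine receptor gene Adora2a was at 30.9 and 24.2 CPM in smooth muscle and 199.99 and 107 CPM in pericytes (-1.93 ± 0.15), and within smooth muscle it was lower in Rgs5-low cells (-1.17 ± 0.21, edgeR adjusted p = 0.00834). Adora2b was at 16.5 and 6.05 CPM in smooth muscle and had no UMI in endothelium. The lactate receptor gene Hcar1 was at 2.62 and 0.825 CPM and passed in neither comparison. Of 5 genes tested 0 were higher and 3 lower than in pericytes by edgeR, also at an unadjusted p under 0.05 (median -1.93), and 2 were higher and 1 lower than in endothelium (median 2.14).

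Genes that move or use lactate and short-chain fatty acids changed in both directions. Slc16a7, the monocarboxylate transporter MCT2 gene, was at 43.2 and 29.99 CPM in smooth muscle against 0.817 and 0.224 CPM in pericytes (5.99 ± 0.29, edgeR adjusted p = 1.28e-07), and was higher in Rgs5-low than Rgs5-high smooth muscle (1.21 ± 0.22, edgeR adjusted p = 0.00843). Acss1, encoding the mitochondrial enzyme that activates acetate, was at 19.3 and 22.0 CPM in smooth muscle against 2.90 and 1.91 CPM in pericytes (3.28 ± 0.26). Slc16a1 (MCT1) was at 3.48 and 6.88 CPM in smooth muscle and 629 and 576 CPM in endothelium (-7.86 ± 0.36), and Slc16a4 behaved alike (-7.81 ± 0.38). Both were lower than in pericytes, by -3.15 ± 0.44 and -3.60 ± 0.49. Bsg, the transporter's chaperone basigin, was lower than in endothelium (-5.21 ± 0.20). Against pericytes 4 of 12 genes tested were higher and 4 lower with a median of -0.04, and against endothelium 5 and 4 with a median of 0.09.

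Genes of acute oxygen sensing in the carotid body, where Olfr78 is also known, were the last list. Higd1c had no UMI in the 5 classes and Th, the catecholamine synthesis gene, had at most 2 UMIs in a library. The potassium channel gene Kcnk3 was at 137 and 117 CPM in smooth muscle, higher than in endothelium at 5.20 and 4.73 CPM (4.80 ± 0.17, edgeR adjusted p = 1.08e-08). Kcnma1, encoding the large-conductance potassium channel, was at 41.9 and 30.8 CPM in smooth muscle and 0.635 and 0.224 CPM in pericytes (5.30 ± 0.54), and was higher in Rgs5-low than Rgs5-high smooth muscle (3.31 ± 0.44, edgeR adjusted p = 0.00183). The mitochondrial subunit genes Ndufa4l2 and Cox4i2 ran the other way within smooth muscle (-1.31 ± 0.13 and -1.09 ± 0.13), as did the hypoxia factor gene Epas1 (-0.59 ± 0.12). Hif3a was at 7.11 and 6.33 CPM in smooth muscle and higher than in pericytes (3.13 ± 0.67) and endothelium (5.17 ± 1.26). Pyruvate carboxylase, Pcx, was at 1.37 and 1.93 CPM in smooth muscle against 21.1 and 19.9 CPM in pericytes (-3.60 ± 0.29), and Egln3 was lower too (-2.81 ± 0.64). Rgs4 was at 919 and 1055 CPM in smooth muscle and 42.7 and 37.6 CPM in endothelium (4.78 ± 0.18). Of 13 genes tested 4 were higher and 5 lower than in pericytes with a median of -0.11, 8 were higher and 2 lower than in endothelium with a median of 1.31, and between the Rgs5 subclasses 1 was higher and 3 lower with a median of 0.23 beside 0.05 for all genes.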

How the data were processed

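The UMI counts were deposited by the authors as gene-by-barcode matrices with no normalization. They were made from Chromium 3′ v3.1 libraries per the labels' protocols, with CASAVA 1.8, Cell Ranger 3.1.0 and Seurat 2.3.4 named in the submitters' processing notes. Genome build and strand setting were not given in the sources used here. The receptors and gene lists were chosen with earlier results of these data known.

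Levels (CPM) are summed UMIs of a gene scaled by all UMIs of the class, with exact Poisson intervals (95%), shares have exact binomial intervals, and thinning to 2000 UMIs is hypergeometric. Intervals cover counting error only. Sums per class and library were fitted with edgeR 4.0.16 (R 4.3.3, TMM, filterByExpr, library as a block), tested on simulated data. DESeq2 1.42.0, RLE, no filter, no block and scaling by total counts (added after seeing the data) were alternatives. Sequences were aligned with Biopython 1.88. Same-library sums come from the same preparation, which is what the block pairs.

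Pairing each cell with 3 others was not possible, since too few cells lacked a UMI, so 1 to 1 pairs were used, chosen after seeing the data. Doublets were scored with Scrublet in scanpy 1.11.5 and not removed. It marked 202 cells (2.62%) of replicate 1 and 1 (0.0156%) of replicate 2, where it did not work. In each library 12 cells met more than 1 gate. The gene that gates oligodendrocytes is not reported here. Named list genes are up to 4 called genes of the largest change per list and comparison, and named genes of the paired fits up to 8 in each direction that moved alike in both libraries. Others named to complete a role were chosen after their values were seen.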

Additional observations from a re-analysis of the deposited data

Results flagged for a closer look

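Receptor UMIs also appeared in barcodes that no comparison used, above the oligodendrocyte level of 2.40 and 1.16 CPM for Olfr78 and 3.30 and 2.51 CPM for Olfr558. Kept cells outside every gate, 512 in replicate 1 and 440 in replicate 2, held Olfr78 at 50.2 and 34.6 CPM and Olfr558 at 161 and 159.7 CPM. In those with Acta2 at or above 20 per 10000 (187 and 156 cells) Olfr78 was at 121 and 41.7 CPM and Olfr558 at 378 and 289 CPM. In those with Acta2 below 20 Olfr78 was at 14.2 and 30.1 CPM and Olfr558 at 51.2 and 77.6 CPM.

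Barcodes that failed the filters, 539 and 650, held Olfr78 at 125 and 69.5 CPM and Olfr558 at 249.6 and 63.2 CPM. Olfr78 was higher there than in smooth muscle of replicate 1 (79.8 CPM), and in replicate 2 its interval overlapped that of Olfr558. Among the 389 and 174 of these barcodes with 20% or more mitochondrial UMIs, Olfr78 was at 131 CPM (exact Poisson interval 114 to 150) and 130 CPM (88.2 to 184), and Olfr558 at 254 and 92.2 CPM. What these barcodes are was not tested.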

How the results depend on the processing

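The order of the classes rests on 2 libraries, and no fit can be made from 1 library, so counts of called genes have no value without a replicate. Pairing with 3 cells each was not run. Of 147 settings of the 28 single-gene results of the paired comparisons, 105 kept their direction and their side of the threshold. Another 39 kept direction only, and 0 reversed. The remaining 3, all of Olfr558, which is described without a test, came to pass. Settings in which a gene was filtered out or had no adjusted p were not counted. Apart from the receptors, the genes were picked for large called changes that were alike in both libraries. The settings refit these libraries, so the lack of reversals says little.

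Under 10% mitochondrial UMIs moved Olfr78 in smooth muscle to 87.6 CPM, its thinned share to 15.6%, its Rgs5-high to Rgs5-low ratio to 1.18 (from 1.36), the thinned share of Olfr558 to 53.1% and the ratio of observed to expected cells with both to 1.04. Acta2 at or above 120 gave 1.75, 14.4% and 1.06 for that Olfr78 ratio, its thinned share and cells with both. Acta2 at or above 50 gave 14.7% and leaving out the highest 6% of doublet scores 15.2% for the thinned Olfr78 share. Thinning to 1000 UMIs gave 30.7% and 7.998% for Olfr558 and Olfr78. Taking endothelium whatever its Acta2 raised Olfr558 there to 27.0 CPM and Olfr78 to 5.77 CPM. These moves exceed 1 SD between libraries, which for the thinned Olfr78 share is only 0.190 points.

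Dropping the library block (pairing of sums by library) changed the higher and lower counts to 1305 and 1494 (from 2281 and 2712) against pericytes, 36 and 65 (from 344 and 370) between Rgs5 subclasses, and 0 and 0 for both paired comparisons. Scaling by total counts gave 5214 lower against pericytes, 9 higher for Olfr78 and 234 higher for Olfr558. For Olfr78 the higher and lower counts were 0 and 15 with RLE (184 higher at an unadjusted p under 0.05), 1 and 13 with DESeq2, 24 and 120 with no filter, 20 and 114 without high doublet scores, and 64 and 149 matched on total UMIs only. For Olfr558 DESeq2 gave 4 and 15.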

Other observations

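Of the other olfactory receptor genes, Olfr889 did not share the class pattern: of its 189 UMIs 62 were in oligodendrocytes, 47 in pericytes and 49 in smooth muscle, and as many as 13 came from a single cell. Omp, the olfactory marker protein gene, had 5 UMIs in oligodendrocytes of replicate 1, 4 in those of replicate 2 and 1 in transitional cells of replicate 2.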
